A study of Mus musculus with 3 samples.

Results

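The genes described here are 6 keratins of simple (single-layered) epithelia, Krt7, Krt8, Krt18, Krt19, Krt20 and Krt23, out of 19938 mouse genes measured on 3 arrays. They were listed by symbol, and each is read by its only single-gene probe set on the array: 10427052 for Krt7, 10432918 for Krt8, 10427075 for Krt18, 10391036 for Krt19, 10390850 for Krt20 and 10390860 for Krt23. Each array held 1 pool of cells sorted by flow cytometry from adult C57BL/6 pancreas, 30000 cells and 18 ng of amplified RNA per pool. The beta cell pool came from 3 untreated Fbw7 +/+ mice carrying MIP-GFP, a green fluorescent reporter driven in beta cells. The Fbw7-deleted ductal pool came from 6 mice of genotype Fbw7 F/F with Ck19-CreERT and R26-LSL-YFP, and the wild-type ductal pool from 6 mice of genotype Fbw7 +/+ with the same 2 transgenes; both sets received tamoxifen for 5 days and were collected 7 days after the last dose. All mice were over 6 weeks old. Fbw7 is the protein product of Fbxw7 and picks the substrates of a ubiquitin ligase complex.

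Keratins are the intermediate filament proteins of epithelial cells. A filament is built from pairs of 1 type I chain (here Krt18, Krt19, Krt20 and Krt23) and 1 type II chain (Krt7 and Krt8), so neither type forms filaments alone. Krt8 and Krt18 are the pair that simple epithelia, including pancreatic acinar cells, generally make, Krt7 and Krt19 are typical of ducts, Krt20 is best known from intestinal and urothelial lining, and Krt23 is a less studied type I chain. Mesothelial cells, the lining of the body cavities, also make Krt7, Krt8, Krt18 and Krt19. Ck19 is an older name of Krt19. Ductal cells were labelled through Cre driven by this promoter, so Krt19 is not independent of how the ductal pools were obtained.

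The values are log2 intensities, and with 1 array per group no difference has an error or a test. A level is called above the floor when it exceeds its array's median over single-gene probe sets (log2 5.30 for beta cells, 5.24 for Fbw7-deleted and 5.23 for wild-type ductal cells). The beta cell array held 8 of 12 listed beta cell markers above the floor, with the insulin gene Ins2 at 11.04 and the amyloid gene Iapp at 9.86. Pdx1, G6pc2, Pcsk1 and Glp1r were below it. Of the 8, Mafa read 5.49 in all 3 arrays, and Slc2a2 read 6.05 in beta and 6.90 in Fbw7-deleted ductal cells. In each ductal array 4 of the 12 were above the floor. On the beta cell array the intensities of the 19 measured acinar markers summed to log2 15.97, against 11.84 for the 12 beta cell markers. Acinar markers summed to 15.45 in Fbw7-deleted and 14.004 in wild-type ductal cells. The part of acinar RNA in the keratin levels was not tested. Of the 20 measured duct markers, 15 were above the floor in beta cells, 17 in Fbw7-deleted and 16 in wild-type ductal cells; the chloride channel gene Cftr was below it in all 3 arrays, and Prom1 was below it in wild-type ductal cells. All 11 mesothelial markers were above the floor in both ductal arrays, for example Msln at 10.73 in Fbw7-deleted and 10.61 in wild-type ductal cells, and 5 of the 11 were in beta cells. The Fbxw7 probe set above the floor read 5.71 in Fbw7-deleted and 6.32 in wild-type ductal cells, a log2 difference of -0.61, and the other read 4.95 in all 3 arrays; where they lie relative to the floxed exons is not stated in the labels, so they do not check the deletion. In both ductal arrays 47.2% of the 35556 probe sets held exactly the same value.

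Krt7, Krt8, Krt18, Krt19 and Krt23 were above the floor in all 3 arrays. Among the type II chains, Krt8 read log2 7.90 in beta cells, 10.34 in Fbw7-deleted and 9.38 in wild-type ductal cells. Krt7 read 6.29 in beta cells, 8.79 in Fbw7-deleted and 8.25 in wild-type ductal cells. For both genes the Fbw7-deleted ductal array was highest and the beta cell array lowest.

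The type I chains that pair with them kept the same order of arrays. Krt18 read log2 7.28 in beta cells, 10.15 in Fbw7-deleted and 9.10 in wild-type ductal cells. Krt19 read 6.71 in beta cells, 9.53 in Fbw7-deleted and 9.13 in wild-type ductal cells. As deposited, in each of these 4 genes the step between the beta cell array and the lower ductal array was wider than the step between the ductal arrays.

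Krt23 and Krt20 had other patterns. Krt23 read log2 5.57 in beta cells, 6.89 in Fbw7-deleted and 5.37 in wild-type ductal cells, so the Fbw7-deleted array alone was well above its floor, by 1.65, against 0.27 in beta cells and 0.14 in wild-type ductal cells. Krt20 read 4.74 in beta cells and 4.38 in each ductal array, below the floor in all 3 arrays. Krt20 therefore entered no count of level differences below. The plot of keratin levels shows these orders gene by gene.

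**Figure D1:**
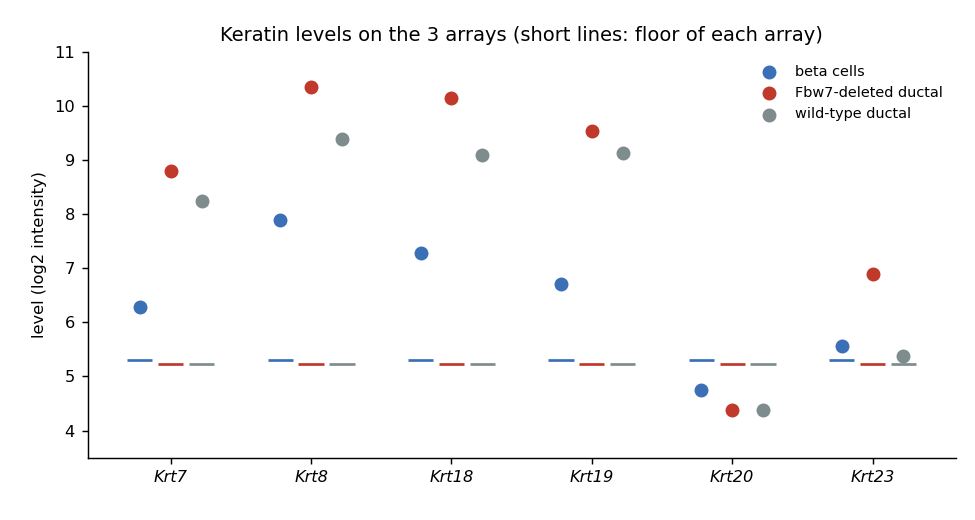
Log2 intensity (vertical axis) of the 6 keratins in beta cells, Fbw7-deleted ductal cells and wild-type ductal cells, 1 point per array, with a short line at the floor of each array. Krt7, Krt8, Krt18 and Krt19 lie highest in Fbw7-deleted ductal cells and lowest in beta cells, Krt23 stands off its floor in Fbw7-deleted ductal cells (6.89), and Krt20 lies below the floor in every array.

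Fbw7-deleted were set against wild-type ductal cells to describe how the keratins differed between these pools, with 1 pool per genotype. All 5 keratins above the floor were higher in Fbw7-deleted cells, with a median log2 difference of 0.96. Over the 10052 genes compared the median was 0. Of these genes 1643 (16.3%) were higher, 3551 lower and 4858 (48.3%) identical in both ductal arrays. Krt23 was 2.87-fold and Krt18 2.07-fold higher, so 2 of the 5 were at least 2-fold higher, against 1.43% of all genes compared. None of the 5 was at least 2-fold lower, as 1.81% of all genes were. Krt8 was 1.95-fold, Krt7 1.46-fold and Krt19 1.32-fold higher.

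The members differed among themselves by up to a log2 difference of 1.11 between Krt23 and Krt19. In this comparison the partner genes Krt8 and Krt18 had nearly the same difference, 0.96 and 1.05, which are 0.09 apart. The duct pair Krt7 and Krt19 had 0.54 and 0.41, which are 0.14 apart. Both pairs were further apart in the other comparisons, by 0.34 and 0.46 in beta against wild-type ductal cells. In beta against Fbw7-deleted ductal cells they were 0.43 and 0.33 apart. There Krt7 and Krt8 were closer in difference (-0.06), as were Krt18 and Krt19 (-0.05). Set among the 10052 genes of Fbw7-deleted against wild-type ductal cells, a more positive difference than that of Krt23 was found in 86 genes (0.856%). The count was 135 (1.34%) for Krt18, 150 (1.49%) for Krt8, 309 (3.07%) for Krt7 and 442 (4.40%) for Krt19. These positions describe 2 single arrays. After quantile normalization and after removal of a loess trend Krt8 passed 2-fold as well, at 1.09 under both. This made the count 3 of 5, beside 140 and 148 of the 10052 genes. The other members stayed on their side of 2-fold under the scalings tried.

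**Figure D2:**
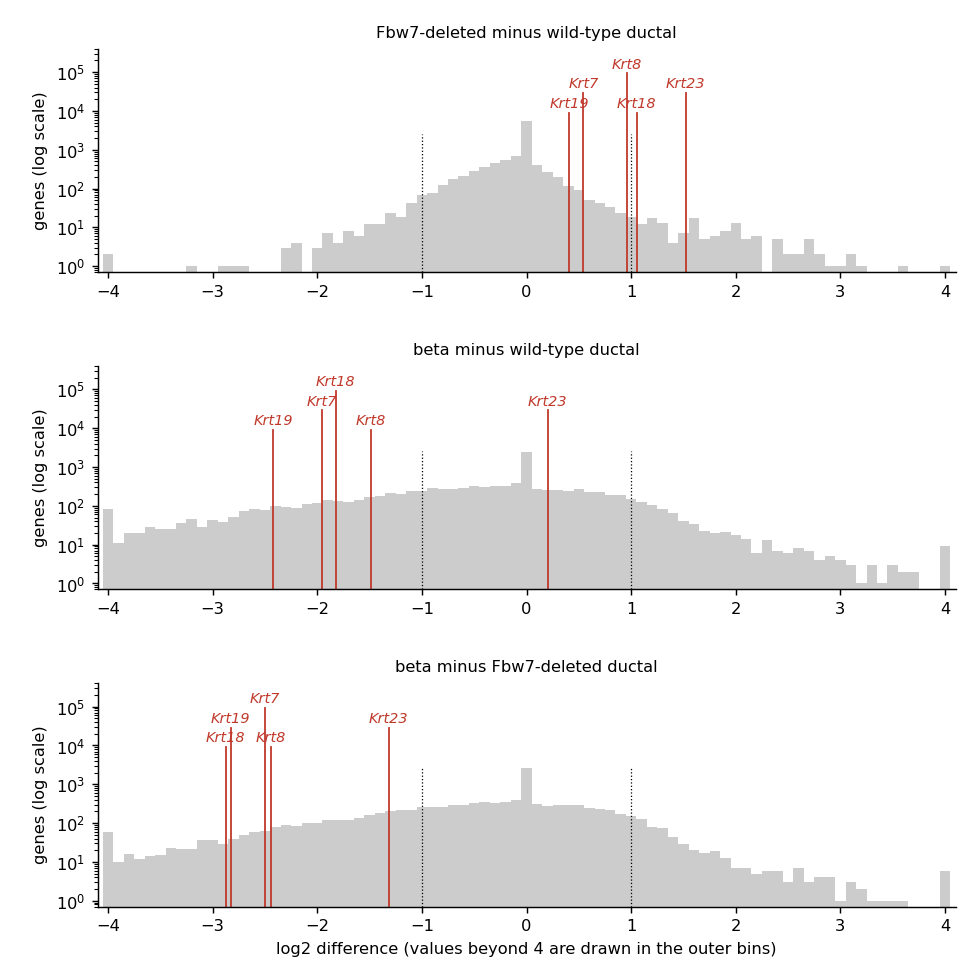
Histograms of the log2 difference over all genes above the floor (grey, number of genes on a log scale) for the 3 pairs of arrays, with the 5 keratins above the floor as red lines and dotted lines at 2-fold. All 5 keratins lie right of 0 in Fbw7-deleted against wild-type ductal cells (0.41 to 1.52), and all 5 lie left of the dotted line in beta against Fbw7-deleted ductal cells (-2.88 to -1.32).

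Genes of the desmosome, the cell junction that keratin filaments anchor to, were higher or identical in Fbw7-deleted cells. In the desmosome list the median log2 difference was 0.45 for 8 genes above the floor; 5 were higher, 0 lower and 3 identical in both ductal arrays. Dsg2, a desmosomal cadherin, read 7.73 in Fbw7-deleted and 6.81 in wild-type ductal cells, a difference of 0.92. Dsc2, another desmosomal cadherin, read 5.82 in Fbw7-deleted cells and 4.25, below the floor, in wild-type cells. Dsp, the plakin that joins desmosomes to keratin, read 6.82 in Fbw7-deleted and 6.06 in wild-type ductal cells, while Pkp2, Pkp3 and Perp were identical in the ductal arrays.

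For 9 plakin and hemidesmosome genes the median was 0, from Cd151, a tetraspanin, at -0.56 (9.04 in Fbw7-deleted and 9.59 in wild-type cells) to Eppk1, an epithelial plakin, at 0.03, and 0 of the 9 were 2-fold apart. Among intermediate filament genes other than keratins, 4 of 6 above the floor were identical and 2 were lower. Vim, the vimentin gene of mesenchymal and mesothelial cells, read 10.16 in Fbw7-deleted and 10.67 in wild-type ductal cells. Des, the desmin gene of muscle and stellate cells, was 1 of the 2 lower genes, at 5.53 in Fbw7-deleted and 6.55 in wild-type cells, which is -1.02 and the only 2-fold difference in that list as deposited; after quantile normalization 0 of the 6 were 2-fold apart. The 5 keratin-binding genes above the floor had a median of 0.38 (0.11 when levels under the floor are raised to it), and 0 of them were 2-fold apart. Fam83h, which organises keratin filaments, was at the upper end, at 5.98 in Fbw7-deleted and 5.17, below the floor, in wild-type cells. Csnk1a1, a casein kinase gene, was at the lower end, at 8.85 in Fbw7-deleted and 9.38 in wild-type cells, a difference of -0.53.

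The remaining 46 keratin genes, mostly of skin, hair and stratified epithelia, were largely below the floor. Of the 46, 34 were above it on no array, and 31 held identical values in both ductal arrays. The 5 above the floor in the ductal arrays were Krt14, Krt33b, Krt87, Krt42 and Krt15, with a median log2 difference of 0.19 and 0 of them 2-fold apart. Krt14, a type I chain of basal epithelial cells, led them at 7.22 in Fbw7-deleted and 6.33 in wild-type ductal cells, a difference of 0.89. Krt42 and Krt15 were identical in both.

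Some marker lists of cell types moved beside the keratins, up or down, and others did not. In such pools, fewer cells of a type cannot be told apart from less RNA per cell. Duct markers, listed without keratins, were represented by 17 genes with a median log2 difference of 1.56, of which 9 were at least 2-fold higher, and their summed intensity was log2 12.54 in Fbw7-deleted and 11.47 in wild-type ductal cells. Among 17 acinar markers the median was 1.68 and 15 were at least 2-fold higher; they summed to 15.45 in Fbw7-deleted and 14.004 in wild-type cells. The 11 mesothelial markers had a median of 0.01, 0 of them were 2-fold apart, and they summed to 13.37 in Fbw7-deleted and 13.44 in wild-type cells.

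By contrast, 10 mesenchymal markers had a median of -0.69, with 4 at least 2-fold lower (2 after quantile normalization), and they summed to log2 12.66 in Fbw7-deleted and 13.30 in wild-type ductal cells. Few markers of blood-borne or vessel cells were above the floor in the ductal arrays: 4 leukocyte markers had a median of -0.48, with 1 at least 2-fold lower, and 4 endothelial markers a median of 0. Ehf, an epithelial ETS factor, had the most positive difference of the duct list, 2.99, and the water channel gene Aqp1 the most negative, -0.51. The acinar list ran from the transcription factor gene Bhlha15 at 0 to the trypsin inhibitor gene Spink1 at 2.78, the mesothelial list from Aldh1a2, a retinoic acid synthesis enzyme, at -0.74 to Upk1b, a uroplakin, at 0.18, and the mesenchymal list from Pdgfra, a growth factor receptor, at -1.99 to Rgs5 at 0.66. The part of each cell type in the keratin differences was not tested. In the plot of differences by list, the keratin median lies between that of the mesothelial markers and those of the duct and acinar markers.

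**Figure D3:**
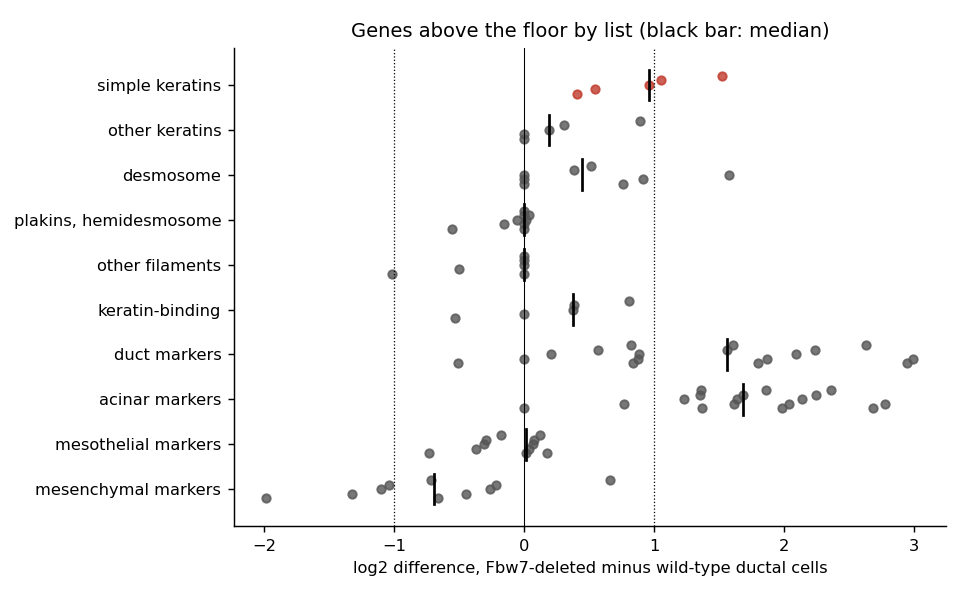
Log2 difference between Fbw7-deleted and wild-type ductal cells (horizontal axis) of each gene above the floor, by gene list, with a black bar at the list's median and dotted lines at 2-fold. The keratin median is 0.96, against 1.56 for duct, 1.68 for acinar, 0.01 for mesothelial and -0.69 for mesenchymal markers.

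The 250 bases before the RefSeq start were available for Krt7, Krt8, Krt18, Krt20 and Krt23 (assembly GRCm38.p6), and 3 are shown because these genes had the most positive differences in Fbw7-deleted ductal cells. Krt8 and Krt18 are neighbouring coding genes on chromosome 15. The Krt8 window is chr15:102004343-102004592 on the minus strand and the Krt18 window is chr15:102027966-102028215 on the plus strand. Krt23 lies between the coding genes Krt20 and Krt39 on chromosome 11, and its window is chr11:99493121-99493370 on the minus strand. Capitals mark CACCTG, an E-box core.
Krt8: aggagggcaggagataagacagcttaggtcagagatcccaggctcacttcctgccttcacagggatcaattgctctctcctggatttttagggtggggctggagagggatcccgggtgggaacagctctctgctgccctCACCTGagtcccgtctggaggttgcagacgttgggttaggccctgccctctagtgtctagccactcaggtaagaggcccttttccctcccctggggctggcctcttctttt
Krt18: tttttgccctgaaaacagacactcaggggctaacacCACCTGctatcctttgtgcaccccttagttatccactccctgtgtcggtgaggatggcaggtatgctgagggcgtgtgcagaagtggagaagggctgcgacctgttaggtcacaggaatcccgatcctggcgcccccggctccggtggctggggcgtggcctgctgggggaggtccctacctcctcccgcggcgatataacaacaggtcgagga
Krt23: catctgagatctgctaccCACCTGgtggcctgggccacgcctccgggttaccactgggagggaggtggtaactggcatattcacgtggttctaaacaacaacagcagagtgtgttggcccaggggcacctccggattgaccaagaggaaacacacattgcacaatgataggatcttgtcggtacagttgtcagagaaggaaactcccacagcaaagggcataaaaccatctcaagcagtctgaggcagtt

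CACCTG or its reverse complement stood in 4 of the 5 keratin windows, those of Krt7, Krt8, Krt18 and Krt23, and in 17.2% of the 32851 windows of the same length in the table. Counted from 1 at the 5′ end of the window, it began at base 140 in Krt8, 37 in Krt18, 19 in Krt23 and 207 in Krt7. TATAAA was found in the Krt20 window alone (12.4% of all windows), and GGGCGG, the GC box, in the Krt7 window alone (32.7% of all), in 4 places. TGANTCA, the AP-1 core, was in none of the 5 (6.75% of all). Both strands were searched, N stands for any base, and the matches of different motifs did not overlap in these windows. The motifs were chosen with these sequences in view, and a match is a string of letters, not a measured site.

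The comparison of beta with wild-type ductal cells sets a pool sorted as beta cells against a pool sorted as ductal cells. The pools also differ in tamoxifen treatment and in reporter and transgenes (MIP-GFP against Ck19-CreERT with R26-LSL-YFP), which cannot be told apart here. As deposited, Krt19 was 5.36-fold lower, Krt7 3.88-fold, Krt18 3.54-fold and Krt8 2.80-fold lower in beta cells, which put 4 of the 5 members past 2-fold, against 25.6% of the 11222 genes compared. Krt23 read 0.20 higher in beta cells. None of the members was at least 2-fold higher, against 6.33% of all genes. The median over the members was -1.82, where the median of all genes was -0.10.

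These differences depended on how the arrays were scaled. The deposited arrays differed in spread. The standard deviation of log2 levels over all probe sets was 1.57 in beta cells. It was 2.02 in wild-type and 1.97 in Fbw7-deleted ductal cells. The part of this spread in the keratin differences was not tested. Quantile normalization moved the median of all genes by 0.19 and loess removal by 0.13. The median of the members moved further, from -1.82 as deposited to -0.72 and -0.40. After quantile normalization Krt7 was at -1.20 and Krt19 at -1.48, still over 2-fold lower in beta cells, whereas Krt18 was at -0.72 and Krt8 at -0.30. With the loess trend removed, Krt19 was at -1.10, Krt7 at -0.98, Krt18 at -0.40 and Krt8 at 0.05, the last with its direction turned. Centring each array left 4 of 5 at least 2-fold lower, beside 3048 of 11228 genes. After quantile normalization 2009 of 11224 genes were lower by that much, and with the loess trend removed 1809 of 11222. Krt19 was at least 2-fold lower in beta cells under each of these scalings, and Krt7 fell just short of 2-fold in the loess setting alone. Of the genes 2-fold apart, 19.8% were higher in beta cells as deposited, against 37.2% after quantile normalization and 34.9% with the loess trend removed.

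**Figure D4:**
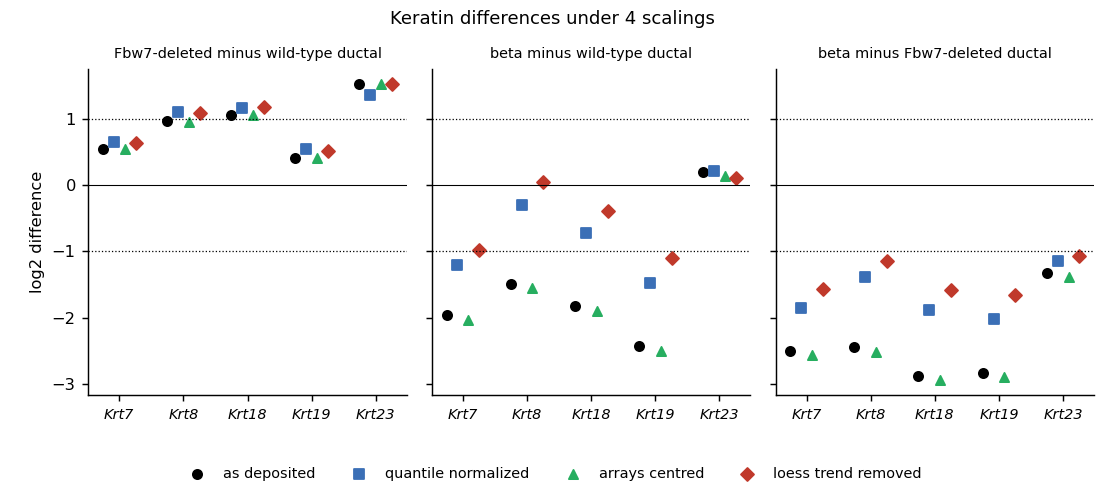
Log2 difference (vertical axis) of the 5 keratins above the floor in the 3 pairs of arrays, as deposited, after quantile normalization, with each array centred and with a loess trend removed; dotted lines mark 2-fold. Values for Fbw7-deleted against wild-type ductal cells stay close together, while Krt8 in beta against wild-type ductal cells runs from -1.55 to 0.05.

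Of the other keratins, 12 were above the floor in beta cells, 7 of them in that array alone, so these 7 entered only through the array where they were high. The 12 had a median log2 difference of 0.66 against wild-type ductal cells, or 0.26 when levels under the floor are raised to it. Of the 5 above the floor in all 3 arrays, Krt14 was lower in beta cells, at 5.84 in beta and 6.33 in wild-type ductal cells, Krt42 was identical, Krt15 was at 0.10, Krt87 at 0.67 and Krt33b at 0.69. Krt71, a type II chain of the hair follicle, read 5.77 in beta cells and 4.61, below the floor, in wild-type ductal cells. Marker lists of other cells again moved beside the members. All 11 mesothelial markers were at least 2-fold lower in beta cells (median -5.08, summed intensity 8.82 in beta and 13.44 in wild-type ductal cells), while 15 of 17 acinar markers were at least 2-fold higher (summed intensity 15.97 in beta and 14.004 in wild-type ductal cells). Of 16 duct markers 5 were at least 2-fold lower in beta cells and 0 higher by that much as deposited (median -0.11). After quantile normalization 4 were lower and 3 higher by that much (median 0.13). Of 10 mesenchymal markers 8 were at least 2-fold lower in beta cells (median -2.25, summed intensity 10.80 in beta and 13.30 in wild-type ductal cells). Of 10 leukocyte markers 5 were at least 2-fold higher (median 1.47, or 0.59 with low levels raised to the floor, since 4 were above it in wild-type ductal cells; summed intensity 10.36 in beta and 9.67 in wild-type ductal cells), and of 8 endothelial markers 3 were higher and 1 lower by that much (median 0.67, summed intensity 9.60 in beta and 10.71 in wild-type ductal cells). The lower endothelial marker was Cd34, at 6.90 in beta and 10.39 in wild-type ductal cells, the highest level of that list in the ductal array. Of 8 beta cell markers 6 were at least 2-fold higher in beta cells (median 1.61, or 1.28 with low levels raised to the floor). The part of these cell types in the keratin differences was not tested.

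The comparison of beta with Fbw7-deleted ductal cells, which uses the same beta cell array, had all 5 members at least 2-fold lower in beta cells, against 22.8% of the 11175 genes compared, and 0 at least 2-fold higher, against 5.09%. Krt18 was 7.34-fold, Krt19 7.10-fold, Krt7 5.66-fold, Krt8 5.45-fold and Krt23 2.49-fold lower in beta cells. The median over the members was -2.50, where the median of all genes was -0.04. Quantile normalization moved the median of all genes by 0.14 and put the members' median at -1.85, and loess removal put it at -1.56. All 5 stayed at least 2-fold lower under both. Beside them 1891 of 11176 genes were lower by that much after quantile normalization, and 1731 of 11175 with the loess trend removed. Beside them, 15 of 17 duct markers (median -2.01, summed intensity 10.51 in beta and 12.54 in Fbw7-deleted ductal cells), all 11 mesothelial markers (median -5.20, summed intensity 8.82 in beta and 13.37 in Fbw7-deleted cells) and 8 of 10 mesenchymal markers (median -1.59, summed intensity 10.80 in beta and 12.66 in Fbw7-deleted cells) were at least 2-fold lower in beta cells. In the other direction, 6 of 10 leukocyte markers were at least 2-fold higher in beta cells (median 1.73, or 1.03 with low levels raised to the floor; summed intensity 10.36 in beta and 9.14 in Fbw7-deleted cells). Of 17 acinar markers 4 were higher and 1 lower by that much (median 0.69, summed intensity 15.97 in beta and 15.45 in Fbw7-deleted cells), and of 8 endothelial markers 3 were higher and 1 lower (median 0.66, summed intensity 9.60 in beta and 10.09 in Fbw7-deleted cells). The lower endothelial marker was again Cd34, at 6.90 in beta and 9.54 in Fbw7-deleted cells. Of 8 beta cell markers 6 were at least 2-fold higher in beta cells, while Slc2a2 was lower and Mafa identical (median 1.58, or 1.28 with low levels raised to the floor). With the loess trend removed, 15 acinar markers were at least 2-fold higher and 2 mesenchymal markers at least 2-fold lower. Their part in the keratin differences was not tested. The beta cell pool differs from this ductal pool in cell type, reporter, tamoxifen and Fbw7 genotype, which cannot be told apart here. Of the genes 2-fold apart, 18.2% were higher in beta cells as deposited, against 35.7% after quantile normalization and 31.1% with the loess trend removed.

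Likeness of pattern was measured as the Euclidean distance between log2 levels over the 3 arrays, each gene centred on its own mean, among 10901 other genes above the floor on at least 1 array. Dsg2, Aldoc, Pdgfd and Lgals2 were below the floor in beta cells and Slc5a1 in wild-type ductal cells, so their distances rest in part on values not told from background. The gene nearest to Krt8 was Dsg2, the desmosomal cadherin above, at a distance of 0.04, followed by Aldoc, a glycolytic aldolase (0.08), and Rmrp, the RNA of a ribonuclease (0.09). Nearest to Krt18 were Pdgfd, a growth factor (0.14), Lgals2, a galectin (0.16), and Zfp36l2, an RNA-binding protein (0.16). Nearest to Krt7 were Slco3a1, an organic anion transporter (0.05), Eif4a2, a translation initiation helicase (0.08), and Lrrc1 (0.10). Nearest to Krt19 were Cxcl10, a chemokine (0.04), Kif1c, a kinesin (0.05), and Snora3, a small nucleolar RNA (0.09).

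The members themselves were not each other's nearest genes. Krt8 ranked 11 in the list of Krt18, at a distance of 0.32, and Krt18 ranked 18 in the list of Krt8. Krt7 ranked close behind, at 14 in the list of Krt18 and 26 in that of Krt8. Krt19 ranked 77 in the list of Krt7, and Krt7 ranked 97 in the list of Krt19, at 0.34. Krt23 stood apart, with Krt8 as its nearest fellow keratin at rank 5248 and a distance of 1.22. Its nearest genes were Slc5a1, a sodium-glucose cotransporter (0.04), St14, the epithelial protease matriptase (0.09), and Smim6 (0.09). St14 read 5.79 in beta cells, 7.23 in Fbw7-deleted and 5.67 in wild-type ductal cells. With 3 arrays a pattern is only 2 independent differences, so small distances are common and are given as a description.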

How the data were processed

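Per the submitters' processing notes, the authors made the deposited log2 intensities with RMA; the sources used here give neither its version nor the set of arrays it was run on. Each of the 3 arrays is 1 pool, so no spread, test or p-value is given, and the number of arrays limits the precision. Probe sets were named from the platform annotation: 21789 had 1 gene, of which 21698 matched RefSeq (GRCm38.p6) by gene ID. The probe set with the highest mean was used for each of the 999 genes with several. Genes whose higher log2 level exceeded the floor of its array were compared, and a difference of at least 2-fold was counted. Members and gene lists were chosen with earlier results of these data known. Named genes are the members, the leading other keratins, extremes of the lists (not all of them are printed) and the 3 nearest genes by pattern; further genes named from the lists (such as Dsp, Pkp3, Perp, Pkp2) were picked after their values were seen. Alternatives were other scalings (loess span 0.3), floors, fold thresholds and the mean of probe sets. The step that compares arrays was checked on simulated data whose added changes were larger than 2-fold. Smaller changes were not tried in that check. Software was Python 3.11.15 with statsmodels 0.14.6, matplotlib 3.10.9, pandas 2.3.3 and numpy 2.4.6.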

Additional observations from a re-analysis of the deposited data

How the results depend on the processing

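The keratin differences between Fbw7-deleted and wild-type ductal cells kept their direction under the scalings tried. They ran from 0.40 to 0.55 for Krt19 and from 1.35 to 1.52 for Krt23. At a 4-fold threshold 0 members were counted, beside 41 genes higher and 15 lower of 10052. Between beta and wild-type ductal cells the members' median was -0.72 after quantile normalization and -0.40 with the loess trend removed. The members at least 2-fold lower numbered 2 of 5 after quantile normalization, beside 2009 of 11224 genes. With the loess trend removed they numbered 1 of 5, beside 1809 of 11222 genes. At 4-fold the count was 1 of 5, beside 1151 of 11222 genes. Krt8 reversed to 0.046 with the loess trend removed; the cause was not tested. Between beta and Fbw7-deleted ductal cells the median was -1.85 after quantile normalization and -1.56 with the loess trend removed.

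The counts over all genes that follow are at a 2-fold threshold unless another is given. Genes lower in Fbw7-deleted than in wild-type ductal cells numbered 182 as deposited and 93 after quantile normalization (60.1% of calls then higher, against 44.2%). At 1.5-fold, 282 were higher and 728 lower, and at 4-fold 41 and 15. For beta against wild-type ductal cells, 710 were higher as deposited, 1189 after quantile normalization, 1478 with no floor, 394 with the floor at the 75th percentile, 327 with low levels raised to the floor, 1558 at 1.5-fold and 102 at 4-fold; 2875 were lower, 1809 with the loess trend removed and 1151 at 4-fold. For beta against Fbw7-deleted ductal cells, 569 were higher, 1048 after quantile normalization, 1207 with no floor, 318 at the 75th percentile, 258 with low levels raised, 1439 at 1.5-fold and 63 at 4-fold; 2552 were lower and 915 at 4-fold. No replicate could be left out, and no paired analysis was possible because each group is 1 array. A value with no replicates was taken to have moved when it changed by over 1.5-fold.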
